A study of Mus musculus with 2 samples.

Results

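The cytosolic ribosomal protein genes encode the proteins of the ribosome that translates nuclear messages. They were chosen by name alone: every protein-coding gene whose mouse symbol was Rpl or Rps followed by a number and an optional a, x or l, together with Rpsa, Rplp0, Rplp1 and Rplp2. The rule found 80 genes among 43346 Ensembl genes, of which 21474 are protein-coding; 49 belong to the large subunit and 31 to the small subunit. It takes in Rpl3l, Rpl10l and Rpl39l, paralogs known from muscle or testis, and misses a few ribosomal proteins with other symbols, which are given separately. The tissue was mouse stomach of the B6NCrl strain at embryonic day 16.5, pooled from embryos of both sexes with no genetic change or treatment named. Total RNA over 200 nt was sequenced from 2 biological replicates, and the labels count 41 embryos in the pool of replicate 2 but leave the other pool without a count. Both libraries form 1 group, so no condition was compared, and an exact two-sided sign-flip test over 2 libraries cannot go below a p of 0.5. Values are per replicate in the order 1 and 2, or mean ± SD with n = 2 libraries.

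A ribosome carries a single copy of nearly every one of these proteins, with the acidic stalk proteins Rplp1 and Rplp2 as the known exception. The genes are transcribed by RNA polymerase II, and many of their messages start with a C followed by a run of pyrimidines, the 5′ terminal oligopyrimidine tract through which mTOR signalling controls their translation. Mammalian genomes also hold many processed pseudogenes of ribosomal protein genes, and reads from a message and from a near-identical copy cannot always be told apart.

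The listed start sites were searched for that tract. RefSeq (GRCm38.p6) gave a start site for 60 of the 80 genes. A C followed by at least 4 pyrimidines, with the C within 5 bases of a listed start on either side, was found in 28 of the 60, or 46.7%, against 21.5% of 17491 protein-coding genes. With the C exactly at the listed base the share was 21.7% against 2.67%, and with 6 or more pyrimidines after the C it was 36.7% against 7.60%. The tract was present in 12 of 23 small subunit genes and in 16 of 37 large subunit genes. The following 30-base stretches cover 15 bases before and 15 from the listed start, on the strand of the gene, with the tract in capitals. They are shown because they hold clear tracts (Rps6, Rpl35, Rplp2, Rpl7a) or belong to the paralog pairs and to the highest and lowest detected genes.
Rps6, chr4:86857353-86857382, minus strand: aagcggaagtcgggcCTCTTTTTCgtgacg
Rpl35, chr2:39005117-39005146, minus strand: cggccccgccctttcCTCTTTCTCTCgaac
Rplp2, chr7:141447636-141447665, plus strand: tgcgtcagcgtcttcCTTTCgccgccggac
Rpl7a, chr2:26910792-26910821, plus strand: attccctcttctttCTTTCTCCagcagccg
Rps27, chr3:90213634-90213663, minus strand: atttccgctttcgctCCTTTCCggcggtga
Rps27l, chr9:66946071-66946100, plus strand: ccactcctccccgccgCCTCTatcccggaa
Rpl39, chrX:37085208-37085237, minus strand: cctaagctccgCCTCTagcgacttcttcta
Rpl39l, chr16:10170213-10170242, plus strand: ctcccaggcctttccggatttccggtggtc
Rpl10, chrX:74270801-74270830, plus strand: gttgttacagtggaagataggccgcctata
Rpl10l, chr12:66284387-66284416, minus strand: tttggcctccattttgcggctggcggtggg
Rpl41, chr10:128549154-128549183, minus strand: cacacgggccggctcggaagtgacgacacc
Rpl5, chr5:107900513-107900542, plus strand: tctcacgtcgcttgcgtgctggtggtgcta
Rps6, the substrate of the S6 kinases, and Rpl35 carry the tract from the listed base itself. Rps27l carries a short tract from 1 base after the start shown, but its other listed start, at 66946413 on chromosome 9, had no match. A gene with several listed starts was counted if any of them matched. Rpl39 carries a short one 4 bases upstream, and its paralog Rpl39l has no C with such a run within 5 bases of its listed start. The Rpl39l stretch does hold a pyrimidine run, cctttcc, which ends just before the listed start but begins outside that window. The lack of a match in Rpl39l thus turned on the width of the window. Rpl41 and Rpl5, the highest and the lowest detected genes of the module, both lack a match, which says only that no such run begins within 5 bases of the listed start.

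The median of the 28 with it was 662 and 573 TPM (a share of all transcripts, corrected for length and scaled to a fixed total), and that of the 32 genes without a match was 580 and 517 TPM; the difference was not tested. Other motifs were searched in the window from 250 bases before to 50 after the start, on both strands. CCGGAAGT, a form of the ETS binding motif, was found in 20.0% of the 60 genes against 5.69% of coding genes. AAGATGGC, the core of the YY1 motif, was in 8.33% against 3.57%, and TATAAA in 10.0% against 14.8%. These matches were not compared with binding data.

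Expected counts summed to 44567153 and 25677702 in the libraries, and 17763 genes passed the low-count filter, with a biological coefficient of variation of 17.4% over the pair. All 10 listed stomach genes reached 1 TPM in both libraries, Krt4 having the highest mean at 2520 ± 1036 TPM. The pools also held transcripts of other tissues. All 5 pancreatic genes were detected, with a median of 2869 and 2818 TPM, and the 13 skeletal muscle genes summed to 2677 and 221 TPM, all 13 more than 2-fold higher in replicate 1. In such bulk samples, fewer cells of a type and less RNA per cell cannot be told apart.

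Of the 80 genes, 77 reached 1 TPM in both libraries, where 64.3% of all protein-coding genes did. The same 77 also reached 50 TPM in both, a level met by 13.8% of protein-coding genes, and 50 of them reached 500 TPM in both, against 1.06%. The median over all 80 genes was 669 and 576 TPM, while detected protein-coding genes had a median of 17.2 and 17.6 TPM. The ribosomal protein transcripts were short, with a median length of 663 and 667 bases against 2466 in both libraries for detected coding genes.

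Together the genes took 6.20% and 5.48% of the TPM of all Ensembl genes, a mean of 5.84 ± 0.509%. In expected counts, which longer transcripts fill faster, the share was 2.41% (Wilson 95% interval 2.40 to 2.41) and 2.11% (2.10 to 2.11), the intervals covering counting error only. The large subunit held 57.9% and 57.6% of the module's TPM.

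**Figure D1:**
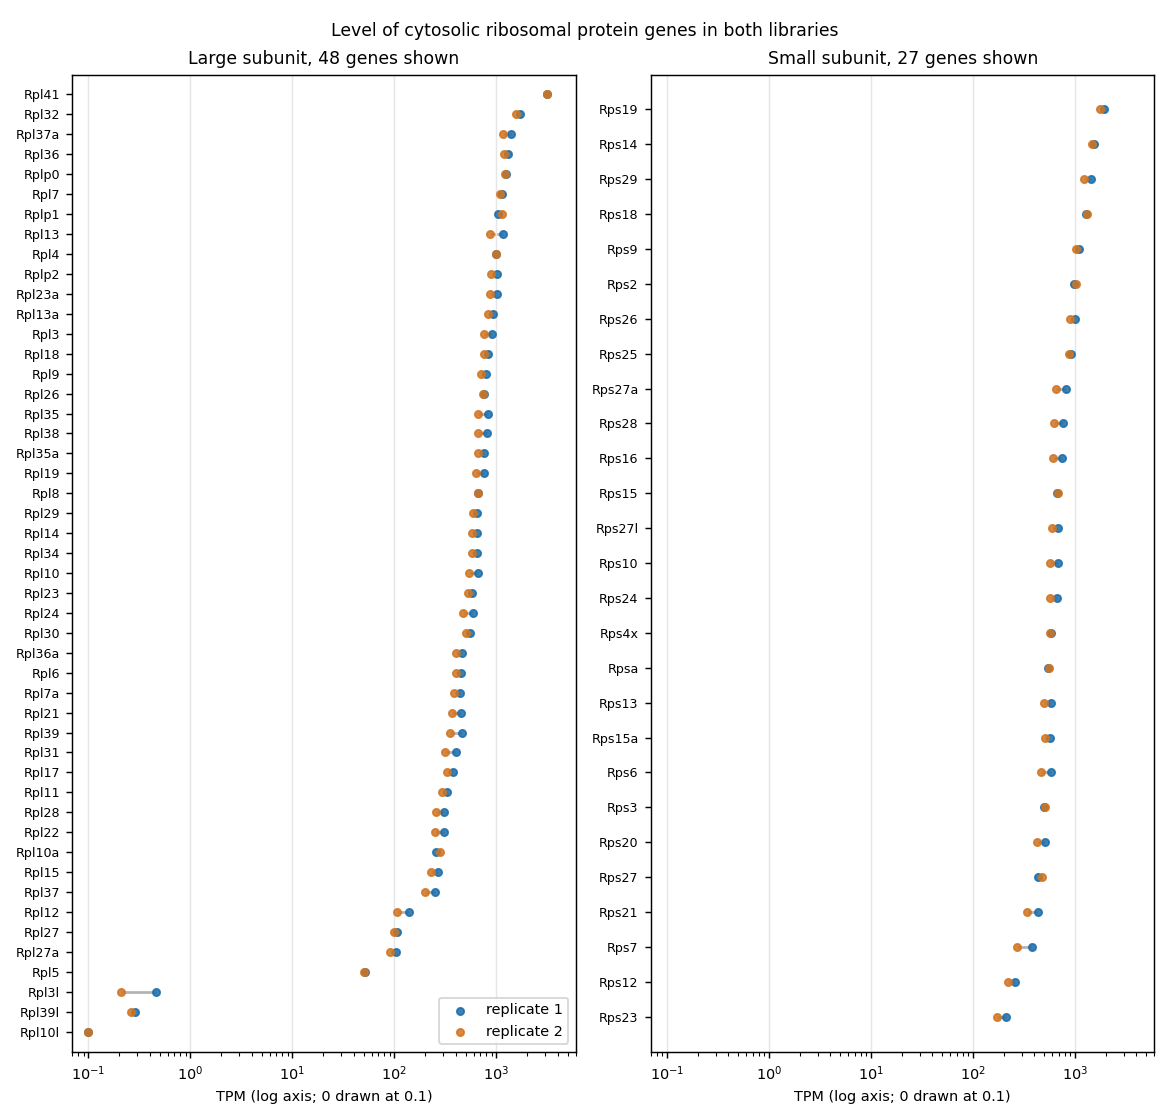
TPM of 75 of the 80 genes in replicates 1 and 2 on a log axis, large subunit on the left and small subunit on the right, ordered by mean. The detected genes drawn lie between 50.7 (Rpl5) and 3153 TPM (Rpl41), and Rpl3l, Rpl39l and Rpl10l lie under 1 TPM.

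The subunits had nearly the same typical level. The median gene stood at 649 and 575 TPM in the large subunit and at 674 and 598 TPM in the small subunit. The large minus small difference of medians was -0.05 and -0.06 on the log2(TPM + 0.1) scale. The large subunit varied more among its members: the SD of log2 TPM over detected genes was 1.12 and 1.14, against 0.71 and 0.77 in the small subunit. The 10 highest genes of the module split into 5 large and 5 small, whereas the 10 lowest detected were 8 large and 2 small.

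At the top stood Rpl41, which encodes a very short basic peptide at the interface of the subunits, with 3153 and 3130 TPM. Next came Rps19, a protein of the head of the small subunit and the most often mutated gene in Diamond-Blackfan anaemia in humans, with 1939 and 1773 TPM. Rpl32 of the large subunit had 1713 and 1552 TPM. These 3 genes kept their order in both libraries. Rps14, a platform protein beside the mRNA exit, had 1521 and 1463 TPM. Rps29, a zinc-binding protein of the head, had 1440 and 1238 TPM, and Rps18 of the head had 1288 and 1320 TPM. The values of Rps29 and Rps18 overlapped between the libraries, so their order was not resolved.

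Among the other high genes of the large subunit, Rpl37a averaged 1286 ± 159, Rpl36 1250 ± 84.9, Rpl7 1106 ± 39.6 and Rpl13 1008 ± 208 TPM. In the small subunit, Rps9 averaged 1060 ± 61.2, Rps2, a protein near the mRNA entry, 1007 ± 34.9 and Rps26, which lies by the mRNA exit, 947 ± 84.5 TPM. The group at a mean of 1000 TPM or more, which also includes Rplp0 and Rplp1, held 15 genes, 8 of the large and 7 of the small subunit.

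The lateral stalk, which recruits the GTPase elongation factors, was evenly expressed. Rplp0, its base, had 1242 and 1216 TPM. Rplp1 had 1050 and 1127 TPM, and Rplp2 had 1017 and 892 TPM. Several copies of Rplp1 and Rplp2 sit on each Rplp0 in the ribosome, and their transcripts were at or below the Rplp0 level in both libraries.

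A middle group of 39 genes averaged 500 to 1000 TPM. Its 21 large subunit genes included Rpl4, Rplp2, Rpl23a, Rpl13a, Rpl3, Rpl18, Rpl9, Rpl26, Rpl35, Rpl38, Rpl35a, Rpl19, Rpl8, Rpl29, Rpl14, Rpl34, Rpl10, Rpl23, Rpl24 and Rpl30, from 992 down to 529 TPM. Its 18 small subunit genes included Rps26, Rps25, Rps27a, Rps28, Rps16, Rps15, Rps27l, Rps10, Rps24, Rps4x, Rpsa, Rps13, Rps15a, Rps6 and Rps3, from 947 down to 501 TPM. Genes of the peptide exit tunnel and its rim lay on both sides of the 500 TPM line, from Rpl4 at 992 ± 4.45, through Rpl23a at 942 ± 111, to Rpl39 at 406 ± 76.8 and Rpl17 at 353 ± 39.0 TPM.

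A further 18 genes averaged 200 to 500 TPM. They were Rpl36a, Rpl6, Rpl7a, Rpl21, Rpl39, Rpl31, Rpl17, Rpl11, Rpl28, Rpl22, Rpl10a, Rpl15 and Rpl37 in the large subunit and Rps20, Rps27, Rps21, Rps7 and Rps12 in the small subunit. The lowest 5 detected genes averaged under 200 TPM and 4 of them belong to the large subunit. Rpl5, which with Rpl11 carries 5S RNA into the large subunit, had 51.6 and 50.7 TPM, whereas Rpl11 had 329 and 293 TPM. Rpl27a had 103 and 90.9, Rpl27 had 107 and 99.8, and Rpl12, at the base of the stalk, had 141 and 105 TPM. Rps23, a protein of the decoding centre, was the lowest of the small subunit with 212 and 171 TPM, followed by Rps12 with 259 and 220 and Rps7 with 377 and 269 TPM. Rps21 had 435 and 342, Rps27 430 and 480, and Rps20 511 and 420 TPM. The highest detected gene thus exceeded the lowest 61.1-fold and 61.8-fold, among proteins that a ribosome holds, with few exceptions, in a single copy.

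Most of the lowest genes had near-identical copies elsewhere in the genome that drew more counts than the gene. A copy was defined as a feature outside the gene's locus that shared at least 50% of its 50-base words with the gene's transcripts. There were 172 such features for 61 of the 80 genes, and 159 of them are annotated pseudogenes. They held 15.4% and 19.4% of the expected counts of genes plus copies. In 9 genes the copies held more than 50% in both libraries, and 7 of these 9 were among the 10 lowest detected genes. The level and the share on copies come from the same split of reads, so this overlap is partly built in. Whether the reads came from the gene or from its copies was not tested, so the level of each such gene alone is uncertain.

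**Figure D2:**
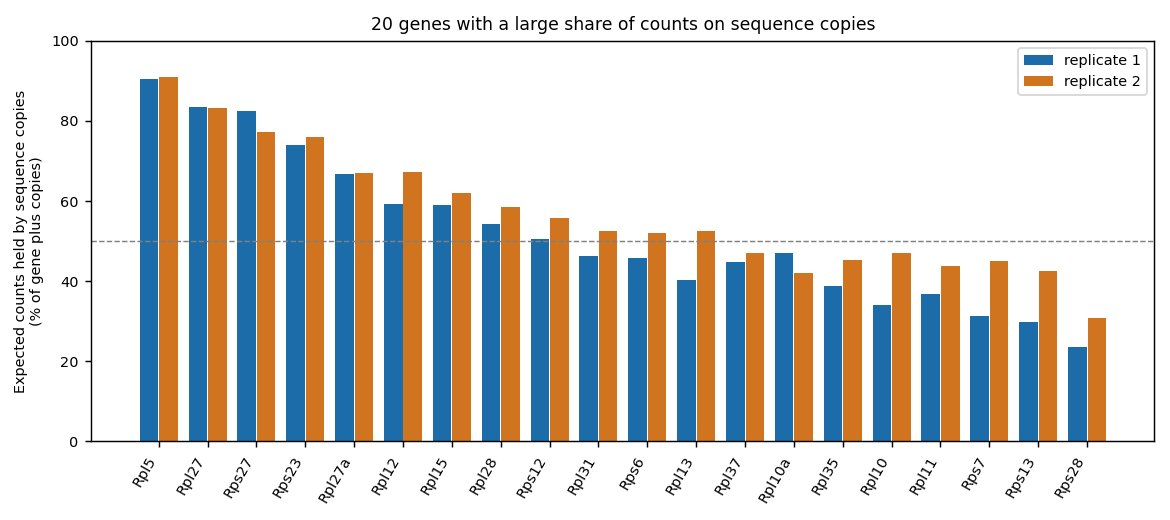
Share of the expected counts of a gene plus its copies that lay on the copies, in percent, for 20 genes with a large share, in replicates 1 and 2; the dashed line marks 50%. Rpl5 leads with 90.5% and 90.9%.

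Rpl5 shows the size of this. Its copies held 90.5% and 90.9% of the combined counts, and a single transcribed processed pseudogene, Gm15500 on chromosome 7 (114705217 to 114706235 on GRCm38), was listed at 618 and 639 TPM. With the counts of the copies added and the length of Rpl5 kept, the level was 545 and 559 TPM, and Rpl5 moved from rank 77 of the detected genes to rank 59. Rpl27 had 83.4% and 83.2% of its combined counts on copies, among them Rpl27-ps3 at 445 and 453 TPM and Gm11518 at 434 and 369 TPM, and its combined level was 641 and 595 TPM.

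For Rps23, copies held 73.9% and 75.9%, Rps23-ps1 alone standing at 1210 and 1084 TPM, and the combined level was 812 and 710 TPM. For Rpl27a the share was 66.8% and 66.9%, for Rpl12 59.1% and 67.2%, for Rpl15 59.0% and 62.1%, for Rpl28 54.3% and 58.4%, and for Rps12 50.6% and 55.8%. Rpl27a and Rpl12 stayed near the bottom, with combined levels of 311 and 275 TPM and of 344 and 321 TPM. Rpl22, an RNA-binding large subunit protein with no such copy, was the lowest detected gene on the combined scale in both libraries, at 305 and 253 TPM.

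Rps27, a zinc-finger protein of the small subunit, changed place most. Rps27rt, a gene on chromosome 9 annotated as protein-coding that shares 91.1% of its words with Rps27, was listed at 1167 and 936 TPM. Copies held 82.5% and 77.2% of the combined counts, and the combined level was 2457 and 2105 TPM, which put Rps27 at rank 2 instead of 56. The listed Rps27 transcript is only 255 bases long, which raises a level computed at that length; the plain sum of the TPM of Rps27 and its copies was 1597 and 1415.

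With copies added, the module was more even. The SD of log2 TPM over detected genes went from 0.98 and 1.01 to 0.68 and 0.70, and the ratio of highest to lowest from 61.1-fold and 61.8-fold to 11.1-fold and 13.2-fold. Summing the deposited TPM instead gave 0.66 and 0.68, and 11.2-fold and 13.5-fold. The large subunit SD was then 0.71 and 0.75 and the small subunit SD 0.62 and 0.62, closer to each other than before. The subunit medians moved apart, to a large minus small difference of -0.27 and -0.34 at the gene's length and of -0.15 and -0.13 for summed TPM. The 16 detected genes with no copy ranged from 279 (Rpl22) to 1632 TPM (Rpl32), so a spread among genes without copies was seen too.

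The paralogs with a known restricted pattern were near or below the limit of detection, while their parents were abundant. Rpl10l, an autosomal retrogene that stands in for X-linked Rpl10 in meiotic male germ cells, had 0 counts in both libraries, which allows up to 3 counts, or 0.106 and 0.189 TPM. Rpl10, which joins the large subunit late and lies by the peptidyl transferase centre, had 668 and 545 TPM, at least 6313-fold and 2883-fold higher when Rpl10l is set to 3 counts in each library. Rpl39l, enriched in testis, had 4 and 2 counts, or 0.29 and 0.26 TPM. Rpl39, a small protein lining the exit tunnel, had 460 and 352 TPM, a ratio of 1593 (95% counting interval 622 to 5847) and 1361 (377 to 11242). Among 7 germ cell genes 0 reached 1 TPM in both libraries, Ddx4 being highest at 0.39 and 0.15 TPM, and Dppa3 and Mael were at 0.

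Rpl3l, which replaces Rpl3 in heart and skeletal muscle, had 18 and 3 counts, or 0.46 and 0.21 TPM, against 912 and 754 TPM of Rpl3. Rpl3 was 1984-fold (1256 to 3348) and 3523-fold (1206 to 17085) higher. After TMM scaling, Rpl3l was 3.44-fold higher in replicate 1 with a counting interval of 1.00 to 18.2, so the direction was barely resolved at this depth. The skeletal muscle genes differed the same way, with a median log2 ratio of 4.38 over all 13. Of 6 heart genes 4 were detected, and the list summed to 251 and 51.7 TPM. Sln had 172 and 4.76 TPM, Myl7 26.3 and 36.1, Myl4 48.2 and 8.70, and Nppa, the lowest, 0.15 in both. Nkx2-5 had 3.70 and 1.92 TPM and Myh6 0.42 and 0.12, so 4 of the 6 were higher in replicate 1 and Myl7 was lower. Their part in the Rpl3l counts was not tested.

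Rps27l differed from these, since it was as abundant as an ordinary member. It encodes a close relative of Rps27 that is induced by p53 in human cells, and it had 680 and 598 TPM against 430 and 480 TPM of Rps27 alone. The difference was 0.49 ± 0.24 on the log2(TPM + 0.1) scale, higher for Rps27l in 2 of 2 libraries. With the copies of Rps27 counted in, Rps27 stood above Rps27l in both libraries, at 2457 and 2105 TPM. The order of the pair thus turned on whether the counts of Rps27rt were added to Rps27. Whether the reads on Rps27rt came from Rps27 was not tested.

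The leading transcript did not differ between the libraries. Of the 77 detected genes, 58 had more than 1 annotated transcript, and the same transcript led in both libraries for all 58, against 90.7% of 9985 detected coding genes with several. Those coding genes were not matched to the module in level, and their part in this gap was not tested. Types are those of GENCODE M21, a later release than that of the deposited tables. Transcripts of non-coding types held 7.69% and 7.52% of the module's TPM, against 10.8% in both libraries over detected coding genes, and retained-intron transcripts held 3.01% and 3.03%. A further 1.47% and 1.43%, on 19 transcripts of 3 genes, had no type in that release and entered neither share; the leading transcript of Rpl13a is one of them. In 5 other genes the leading transcript had a type other than protein-coding. A processed transcript held 87.7% and 88.1% of the TPM of Rpl35 and 67.5% and 62.3% of Rpl23. A retained-intron transcript held 93.1% and 90.5% of Rps20 and 55.5% and 55.8% of Rpl5, and a transcript marked for nonsense-mediated decay held 60.6% and 59.1% of Rpl12. Rpl5 and Rpl12 are also among the genes with most counts on copies, and the copies' part in these shares was not tested.

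Between the pools most genes of the module differed in the same direction, and by little. After TMM scaling on all genes, 70 of the 77 genes past the filter were higher in replicate 1, where 50.4% of all 17763 genes were. Their median log2 ratio of replicate 1 over replicate 2 was 0.22, against 0.002 for all genes, and single genes ranged from -0.12 to 0.52. None of the 77 passed 2-fold in either direction; over all genes 1.24% passed it in replicate 1 and 2.34% in replicate 2. In the large subunit 43 of 46 were higher in replicate 1, with a median of 0.21, and in the small subunit 27 of 31, with a median of 0.22. The TPM order of the genes was kept (Spearman rho 0.981 over 77 genes in the same 2 libraries, a description).

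This direction depends on the scaling. Scaled to the spiked-in control RNAs, 0 of the 77 genes were higher in replicate 1, against 4.63% of all 17763 genes. The median of the 77 was -0.36, but the median of all genes shifted to -0.57. That scaling moved all genes by about the same amount, so it could not change the module's place above the median gene. Other groups that differed between the pools were the skeletal muscle genes, above, and the stomach genes. Of the stomach genes 1 of 10 was higher in replicate 1, with a median of -0.60. The heart genes were mixed, with 4 of 5 past the filter higher in replicate 1 and Myl7 lower at -0.42. The heart median of 1.66 was the value of Myh6, which had 0.42 and 0.12 TPM. Of the erythroid genes 7 of 8 were higher in replicate 1, with a median of 0.13 that lay inside the middle 50% of all genes (-0.14 to 0.14). Their part in the ribosomal protein ratios was not tested.

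Among the largest ratios were those of Rps7, a small subunit body protein, at 0.52, Rpl13 at 0.45, Rpl39 at 0.42 and Rps21 at 0.38. Toward the other end stood Rps27 at -0.12, Rpl10a at -0.10, Rplp1 at -0.07 and Rps2 at -0.03. Copies held a large share of the counts of several of these. For Rps7, copies held 31.3% of the combined counts in replicate 1 and 45.1% in replicate 2, and for Rpl13 40.2% and 52.5%. Rps21, which has no copy, stayed at 0.38. For Rps15a the listed length also differed between the libraries, and its log2 ratio was 0.19 in TPM where it was 0.37 in counts.

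With the copies added, the median of the 77 ratios was 0.13, and 68 of 77 were higher in replicate 1, against 50.5% of all genes counted this way. Rps7 then stood at 0.20 and Rpl13 at 0.12, lower than alone, whereas Rps27 at 0.26 and Rpl10a at 0.03 were higher than alone. The ratio was lower by more than 0.1 with copies than without in 27 of the 77 genes. Of the copies themselves, 101 passed the filter and 20 of these were higher in replicate 1, with a median log2 ratio of -0.93. Beyond 2-fold, 46 copies were higher in replicate 2 and 0 in replicate 1, against 2.34% and 1.24% of all genes. Copies are not separate observations, since several copies of Rpl35a, such as Rpl35a-ps3 and Rpl35a-ps4, had identical counts of 61.0 and 125. Split by a bound chosen after the values were seen, the 31 copies with a mean of 1000 or more expected counts, which held 93.6% and 88.0% of all counts on copies, had a median of -0.03. The other 70, each with a mean under 1000 expected counts, had a median of -1.25. The part of this split in the ratios of the genes alone was not tested. The 20 genes whose copies held under 1% of the combined counts in both libraries had a median ratio of 0.14, with 18 of 20 higher in replicate 1; the other 57 had 0.25, with 52 higher.

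**Figure D3:**
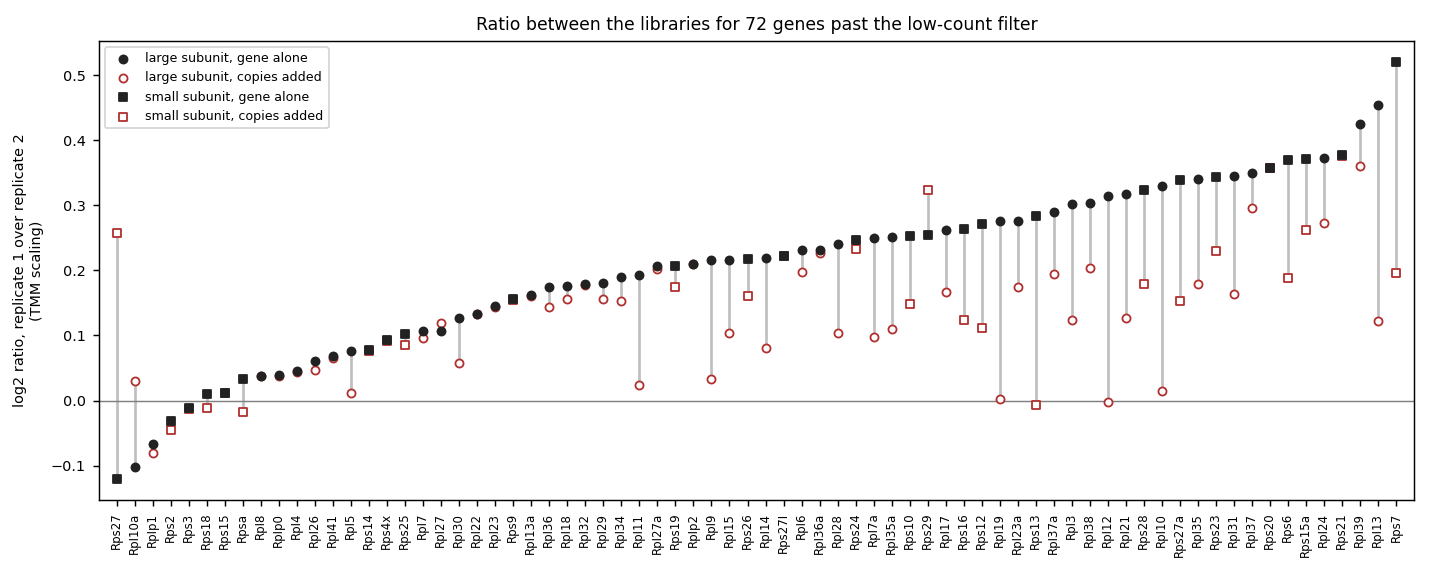
Log2 ratio of replicate 1 over replicate 2 after TMM scaling for 72 of the 77 genes past the filter, ordered by the ratio of the gene alone (filled) and joined to the ratio with the counts of its copies added (open). Filled points run from -0.12 (Rps27) to 0.52 (Rps7), and the median over all 77 is 0.22 for genes alone and 0.13 with copies added.

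Ribosomal proteins that the naming rule left out lay within the range of its members. Rps3a1, a small subunit protein, averaged 953 ± 44.8 TPM with a log2 ratio of 0.13. Of 9 further names listed, 7 were measured, and all 7 were detected. Fau, which encodes a small subunit protein fused to a ubiquitin-like protein, averaged 425 ± 70.3 TPM. Rack1, a scaffold on the head of the small subunit, averaged 544 ± 43.3 TPM, and Rpl36al 534 ± 45.4. Rpl22l1 and Rpl7l1, paralogs of Rpl22 and Rpl7, averaged 311 ± 54.0 and 111 ± 7.59 TPM, and Rpl22 itself averaged 279 ± 36.5.

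The medians of other gene lists of translation were lower. The 77 mitochondrial ribosomal protein genes, which build the separate ribosome of that organelle, were all detected, with a median of 77.9 and 76.5 TPM. They ran from Mrpl1 at 17.3 ± 1.93 to Mrpl42 at 246 ± 0.629, Mrps21 at 258 ± 11.4 and Mrpl17 at 281 ± 10.6 TPM; the highest of them lay below the median of the cytosolic genes. Of these 77, 59 were higher in replicate 1, with a median log2 ratio of 0.07. Of 26 elongation and other translation factors 25 were detected, with a median of 250 and 249 TPM. Eef1a1, which delivers aminoacyl-tRNA, reached 3518 ± 95.3 TPM, above every ribosomal protein gene, Eif1 reached 1339 ± 22.2 and Eif5a 1260 ± 17.9, while the muscle and neuron form Eef1a2 was at 0.11 ± 0.028. Of the 25 factors past the filter 14 were higher in replicate 1, with a median of 0.03.

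Genes of ribosome assembly had a median of 55.6 and 52.1 TPM, with all 29 detected. The nucleolar proteins Npm1 and Ncl averaged 547 ± 36.9 and 299 ± 13.4 TPM, Eif6, which keeps the new large subunit from joining, 189 ± 14.6, and Rrp12 was lowest at 12.9 ± 0.594. The 12 genes of RNA polymerase I and its factors, which make the ribosomal RNA, had a median of 29.4 and 29.0 TPM, from Taf1c at 9.66 ± 0.156 to Ubtf at 58.6 ± 1.92, Znrd1 at 61.8 ± 3.97 and Polr1d at 117 ± 0.453. The 10 regulators were likewise all detected, among them the translational repressor Eif4ebp1 at 115 ± 5.37, Myc at 74.0 ± 4.61 and the S6 kinase gene Rps6kb1 at 49.1 ± 0.566 TPM, with Rptor lowest at 4.85 ± 0.148. Higher in replicate 1 were 19 of 29 assembly genes, 5 of 12 polymerase genes and 7 of 10 regulators, with median log2 ratios of 0.04, -0.03 and 0.06.

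**Figure D4:**
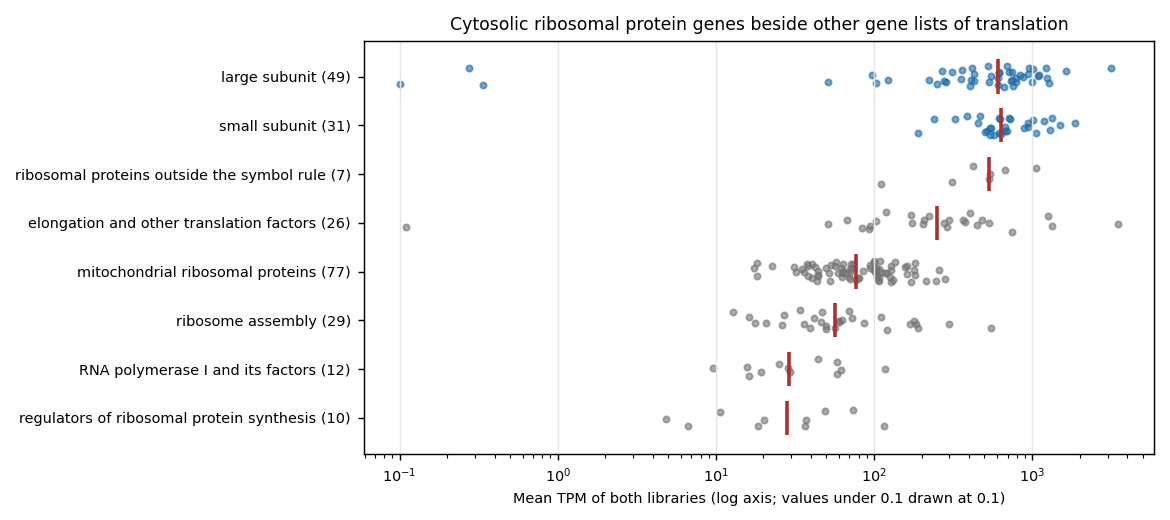
Mean TPM of both libraries on a log axis for each gene of the large and small subunit and of 6 other lists, with a red bar at the list median and the number of genes in brackets. The cytosolic subunits lie highest, and the mitochondrial ribosomal protein genes reach 281 TPM at most.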

How the data were processed

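Per the labels, stomach RNA was extracted with the mirVana method, 10 ng entered each library, a SMARTer Ultra Low kit manual is listed and control RNAs were spiked in. The deposited text files name mm10 with annotation M4, and the sources used here do not name an aligner or quantifier. Per the file headers, the authors gave expected counts, that is, estimated reads with shared reads split. TPM and FPKM were deposited by the authors with posterior means of TPM. The authors deposited the percent of a gene's TPM on each transcript, and these percents are given here for leading transcripts. Shares by transcript type were computed from transcript TPM. Symbols, types and positions came from GENCODE M21.

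In edgeR 4.0.16 under R 4.3.3, rounded expected counts went through filterByExpr and TMM scaling (factors 1.01 and 0.992), and log values took a prior count of 2; DESeq2 1.42.0 gave alternative size factors. With 1 group no edgeR test could be run. Log2 levels used a pseudocount of 0.1. The ratio step was tested on simulated data. The rest was done in Python 3.11.15 with pandas 2.3.3, scipy 1.17.1, numpy 2.4.6 and, for plots, matplotlib 3.10.9. Copy features were found from shared 50-base words of M21 transcripts; this, full length in place of effective length, and summed TPM of copies were added after the data were seen.

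The genes, lists and rules were chosen with earlier results of these data known. Named are the 8 highest and 6 lowest genes of each subunit, paralogs and parents, stalk and 5S genes, the 5 largest ratios each way, and the 3 highest and the lowest of companion lists; genes named for their copies, transcripts or length were chosen after their values were seen. A few genes that these rules would name are not reported here and not drawn, but they stay in all counts and medians. Depth sets the precision, and a count of 0 allows up to 3 counts.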

Additional observations from a re-analysis of the deposited data

How the results depend on the processing

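Detection of 77 genes held at 5 and 50 TPM, in FPKM, in posterior mean TPM and in each library alone (77 to 77); at 500 TPM 50 remained above the line. The summed share of 5.84% was 2.26% in expected counts, 6.63% over protein-coding genes and 7.07% with copies added, and 5.48 to 6.20% in single libraries. The subunit difference of -0.06 was -0.034 for genes with a mean of 1 TPM or without the restricted paralogs, -0.060 in posterior mean TPM, -0.12 with named pseudogenes added, -0.31 with copies added, -0.14 with their TPM summed and -0.039 at full length (0.0035 and -0.08 in replicates 1 and 2, so the direction turned in replicate 1), and -0.06 to -0.05 in single libraries. The median ratio of 0.22 reversed to -0.36 with spike-in scaling. It was 0.18 in unscaled TPM, 0.24 by library total, 0.22 without the filter, 0.16 with named pseudogenes added, 0.35 with a length and GC trend removed, 0.21 with pseudogenes left out and 0.13 with copies added. The subunit difference of that ratio, -0.01, was -0.0018 in unscaled TPM, -0.059 with the trend removed and -0.027 with copies added. Rpl39l minus Rpl39, -10.07, was -8.31 and -10.47 at pseudocounts of 1 and 0.01 and -9.63 in posterior mean TPM (single libraries -10.21 to -9.93). Rpl3l minus Rpl3, -10.96, was -9.29 at a pseudocount of 1 and -10.29 in posterior mean TPM (-11.25 to -10.67). Rps27l minus Rps27 was 0.32 to 0.66 in single libraries. With coding transcripts only, 37 of 37 genes kept the leading transcript, and 13 genes had a tract exactly at the start. The cause of these shifts was not tested. No paired analysis was possible because the labels give 1 group. Low counts limit Rpl3l, Rpl39l and Rpl10l, and shared reads limit genes with copies.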

Other observations

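The 80 genes lie on 19 chromosomes, 14 of them on chromosome 7. Rps2 and Rpl3l lie 5890 bases apart on the plus strand of chromosome 17 and averaged 1007 and 0.335 TPM. The X-linked genes Rpl10, Rpl36a, Rpl39 and Rps4x had a median log2 ratio of 0.28 over 4 genes, with single values of 0.33, 0.23, 0.42 and 0.09. The 16 listed genes whose human orthologs are known from Diamond-Blackfan anaemia ran from Rpl5 at 51.1 ± 0.651 TPM to Rps19 at 1856 ± 118 TPM. In replicate 1, 15 of the 16 were higher, with a median log2 ratio of 0.22. The whole module was much the same, with 70 of 77 genes higher and a median of 0.22, against 50.4% of all genes. Over 77 genes, mean TPM and the share of combined counts on copies had a Spearman rho of -0.48, and the ratio between libraries and that share 0.38; the points share the 2 libraries and the split of reads between gene and copy, and the values are descriptions.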
